A study of Homo sapiens with 12 samples.

Results

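The 10 genes described here are ATF6, HSPA5, HSP90B1, CALR, CANX, PDIA4, PDIA6, HYOU1, CRELD2 and SDF2L1, which encode a sensor of the unfolded protein response and the chaperones, folding enzymes and cofactors of the endoplasmic reticulum (ER). They were taken by symbol and Ensembl identifier from a count table of 63677 genes, and all 10 were found and passed the filter on low counts that left 18674 genes for testing. They were chosen for what their products do, by a rule that uses no measured value, but with earlier results of these data known. Their identifiers are ENSG00000118217 (ATF6), ENSG00000044574 (HSPA5), ENSG00000166598 (HSP90B1), ENSG00000179218 (CALR), ENSG00000127022 (CANX), ENSG00000155660 (PDIA4), ENSG00000143870 (PDIA6), ENSG00000149428 (HYOU1), ENSG00000184164 (CRELD2) and ENSG00000128228 (SDF2L1). RNA-seq was performed on JEKO1, JVM2 and MAVER1, established cell lines of mantle cell lymphoma (MCL), a B-cell malignancy, cultured for 48 h either untreated, with 1 of the drugs ironomycin and ibrutinib, or with the pair. Ironomycin sequesters iron in lysosomes, and ibrutinib inhibits BTK, a kinase of B-cell receptor signaling. JEKO1 received 50 nM ironomycin and 0.5 µM ibrutinib, JVM2 received 250 nM and 1.5 µM, and MAVER1 received 250 nM and 6.25 µM, alone or combined at the same doses. JEKO1 and MAVER1 were grown in RPMI with 20% serum and JVM2 in RPMI with 10% serum. JVM2 and MAVER1 thus shared the ironomycin dose, and JEKO1 and MAVER1 the serum, while JVM2 differed from both other lines in serum and every line had its own ibrutinib dose. Line and serum cannot be told apart for JVM2, nor line and ironomycin dose for JEKO1. Each line gave 1 library per treatment and no second culture, so a treatment is replicated over lines (n = 3). P-values of treatments measure the spread between lines. P-values of an effect within a line, or of its difference between lines, use a residual spread pooled over all 12 libraries. They measure no spread between cultures of a line.

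ATF6 is a membrane protein of the ER that is held there by BiP, the product of HSPA5. When unfolded proteins accumulate it moves to the Golgi, where the site-1 and site-2 proteases MBTPS1 and MBTPS2 release its cytosolic part, a transcription factor that works together with NF-Y at ER stress response elements of chaperone genes. Its activation is a cleavage, so the ATF6 transcript is not a measure of it, and the RNA of its target genes is the usual readout. B cells expand this machinery when they turn to antibody secretion.

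The element itself is printed first because most of these promoters hold it. The genes were chosen as ATF6 and ER folding machinery, and ATF6 is known to work at this element in chaperone genes. Its presence in them is therefore not an independent result. The ER stress response element (ERSE) was searched as CCAAT, 9 bases of any kind, then CCACG, and its variant ERSE-II as ATTGG, 1 base of any kind, then CCACG, on both strands of RefSeq promoters (GRCh38.p14) that run from 250 bases before to 50 bases after a start site. Both patterns hold CCACG, and both hold CCAAT, which is ATTGG on the other strand. Of 35116 promoters, 27 (0.0769%) held an ERSE and 19 (0.0541%) an ERSE-II. Counted by gene, the shares were 0.0916% and 0.0696% of 27305 genes. Of the 10 genes, 6 held an ERSE and 2 an ERSE-II, and all 10 had a promoter in the table. Each stretch below reads 5′ to 3′ on the strand of its gene, with 15 bases on each side and the fixed letters of the pattern in capitals, where CGTGG and ATTGG are CCACG and CCAAT on the opposite strand.
HSPA5, ERSE, chr9:125241376-125241424, minus strand: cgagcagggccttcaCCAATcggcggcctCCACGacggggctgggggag
HSP90B1, ERSE farther from the start, chr12:103930201-103930249, plus strand: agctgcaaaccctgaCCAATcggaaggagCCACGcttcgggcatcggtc
HSP90B1, ERSE nearer to the start, chr12:103930306-103930354, plus strand: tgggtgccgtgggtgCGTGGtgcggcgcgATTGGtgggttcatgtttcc
CALR, ERSE, chr19:12938369-12938417, plus strand: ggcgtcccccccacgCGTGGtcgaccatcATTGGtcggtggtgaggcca
CANX, ERSE, chr5:179698763-179698811, plus strand: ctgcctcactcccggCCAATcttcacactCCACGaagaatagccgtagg
PDIA6, ERSE, chr2:10812838-10812886, minus strand: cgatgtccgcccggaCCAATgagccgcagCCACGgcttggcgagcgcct
CRELD2, ERSE, chr22:49918539-49918587, plus strand: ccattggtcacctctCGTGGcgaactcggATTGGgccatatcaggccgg
HYOU1, ERSE-II farther from the start, chr11:119057365-119057405, minus strand: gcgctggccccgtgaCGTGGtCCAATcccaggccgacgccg
HYOU1, ERSE-II nearer to the start, chr11:119057259-119057299, minus strand: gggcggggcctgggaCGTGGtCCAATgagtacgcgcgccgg
SDF2L1, ERSE-II, chr22:21642099-21642139, plus strand: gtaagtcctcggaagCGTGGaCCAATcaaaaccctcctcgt

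The HSPA5 element began at position -66 from the start site, the elements of HSP90B1 at -194 and -89, of CALR at -225, of PDIA6 at -86 from 1 of its 2 listed start sites and of CRELD2 at -80. The CANX element was the same site seen from 3 of the 4 listed start sites, at -151, -9 and -189. HYOU1 held ERSE-II at -185 and -79, and SDF2L1 at -188. The first HYOU1 element overlapped the core of another element of the response, TGACGTG, at -188, which 1.97% of promoters held and no other gene of the 10. The windows of ATF6 and PDIA4 held neither ERSE nor ERSE-II in these exact letters. A match is a description of the sequence and was not tested for binding.

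All 10 genes were read deeply. Library totals ran from 35448523 to 38630809 counts, with the lowest in JEKO1 with both drugs, and the counts of the 10 genes ran from 386 for SDF2L1 to 64634 for CANX in single libraries. Levels are given as counts scaled to a library of 1000000 counts with TMM normalization factors (CPM), and levels are compared between genes only after division by the exon length of the gene (CPM per kilobase). In controls CALR was the most abundant of the 10 per kilobase, at 274 CPM per kilobase in JEKO1, 497 in JVM2 and 360 in MAVER1. ATF6 was at 5.91, 9.76 and 5.84 CPM per kilobase in the same order, and CRELD2 at 5.22, 11.6 and 17.9. The sensor was thus the least abundant of the 10 in JVM2 and MAVER1 controls, and CRELD2 in JEKO1 controls.

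In the untreated controls the lines were not alike. JVM2 held the highest control level of 6 of the 10 genes, MAVER1 of 4 and JEKO1 of 0, while JEKO1 held the lowest of 7. HYOU1 stood at 338 CPM in JVM2 controls against 116 in JEKO1 and 195 in MAVER1, which is 2.92-fold and 1.73-fold higher. SDF2L1 stood at 61.9 CPM in JVM2 against 11.4 in JEKO1, 5.42-fold higher, and 50.7 in MAVER1. PDIA4 was the exception on the other side, with 262 CPM in JVM2, 263 in JEKO1 and 370 in MAVER1. For 5 of the 10 genes the JVM2 control lay above every JEKO1 library, treated ones included. There was 1 control library per line, so these differences have no replicate check.

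**Figure D1:**
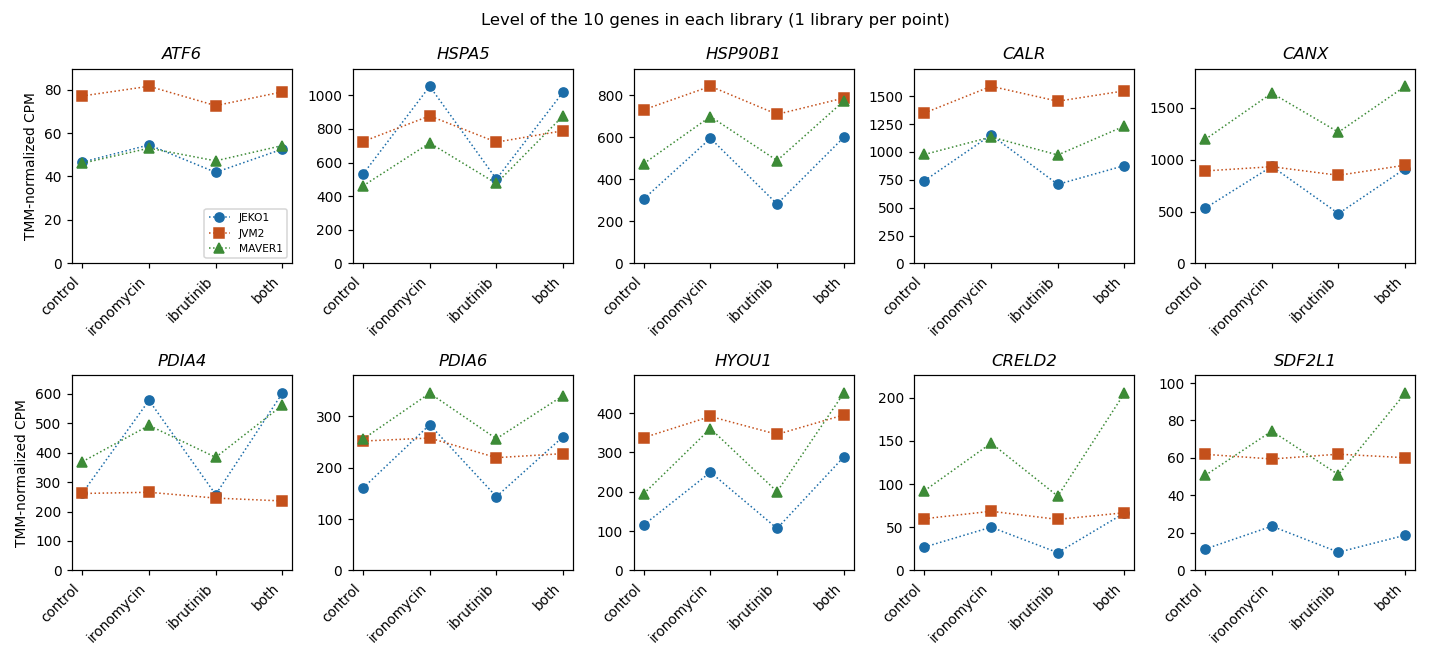
TMM-normalized CPM (vertical axis, from 0) of each of the 10 genes in the 4 treatments (horizontal axis), with 1 point per library and a colour and marker per cell line. The dotted lines only join libraries of a line. In JEKO1 and MAVER1 both libraries with ironomycin lie above both libraries without it for all 10 genes (32.6% and 33.9% of all genes tested). In JVM2 this holds for 7 of the 10 (26.0% of all genes), and HYOU1 lies between 338 and 395 CPM there.

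The sensor ATF6 itself moved little. Its level was 46.6 CPM in the JEKO1 control, 54.5 with ironomycin, 41.9 with ibrutinib and 52.6 with the combination. In MAVER1 it was 46.1, 53.0, 47.2 and 54.2 CPM in the same order, and in JVM2 77.0, 81.5, 72.6 and 78.9. The libraries with ironomycin were the higher ones in each line, by small margins, and every JVM2 library lay above every library of the other lines. Over the 3 lines ATF6 changed by 0.17 ± 0.08 (log2 fold change ± SE) with ironomycin and by 0.15 ± 0.08 with both drugs, and neither passed the test (adjusted p = 0.227 and 0.179, edgeR). Within JEKO1 it rose by 0.28 ± 0.08 (adjusted p = 0.0186, edgeR), and this call was lost without the filter on low counts (adjusted p = 0.0906) and without the JVM2 libraries in the fit (adjusted p = 0.0513).

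The chaperones HSPA5 and HSP90B1 and the cofactors HYOU1 and SDF2L1 come next. HSPA5 encodes BiP, the Hsp70 chaperone of the ER, which also restrains the sensors of the response. It stood at 531 CPM in the JEKO1 control, 1054 with ironomycin, 502 with ibrutinib and 1019 with the combination. In MAVER1 it stood at 462, 717, 476 and 878 CPM in that order, and in JVM2 at 725, 878, 722 and 789. Ironomycin alone took HSPA5 to 1.98-fold of its control in JEKO1, 1.55-fold in MAVER1 and 1.21-fold in JVM2, which had the highest control of the 3 lines, and the groups with and without ironomycin did not overlap in any line. HSP90B1 encodes GRP94, the Hsp90 of the ER, which folds receptors and immunoglobulin chains. It stood at 307, 595, 283 and 599 CPM in JEKO1, at 474, 698, 489 and 772 in MAVER1, and at 730, 842, 709 and 786 in JVM2, in the same order of treatments. JEKO1 cells with ironomycin thus did not reach the JVM2 control.

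HYOU1 encodes GRP170, a large Hsp70 relative that exchanges nucleotide on BiP. It stood at 116, 250, 107 and 288 CPM in JEKO1, for control, ironomycin, ibrutinib and both drugs. In MAVER1 it stood at 195, 361, 200 and 451 CPM, and in JVM2 at 338, 392, 346 and 395. Both lines that started low more than doubled with both drugs, by 2.49-fold in JEKO1 and 2.31-fold in MAVER1, while JVM2 changed 1.17-fold. SDF2L1 is a partner of the J-domain cochaperones of BiP and was the least counted of the genes in JEKO1. It stood at 11.4, 23.6, 9.7 and 18.8 CPM in JEKO1, at 50.7, 74.4, 51.0 and 94.6 in MAVER1, and at 61.9, 59.5, 62.0 and 60.1 in JVM2. The JVM2 libraries with and without ironomycin overlapped, and the others did not.

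Calreticulin and calnexin are the lectin chaperones that hold glycoproteins until they are folded. CALR, the soluble form, stood at 743, 1153, 710 and 878 CPM in JEKO1, for control, ironomycin, ibrutinib and both drugs. It stood at 978, 1135, 973 and 1233 CPM in MAVER1 and at 1350, 1589, 1455 and 1549 in JVM2. Its JEKO1 level with both drugs lay nearer to the control than to ironomycin alone. CANX, the membrane form, stood at 532, 935, 480 and 913 CPM in JEKO1, at 1194, 1640, 1264 and 1705 in MAVER1, and at 891, 931, 849 and 946 in JVM2. Ironomycin alone took CANX to 1.76-fold of control in JEKO1 and CALR to 1.55-fold. In MAVER1 the folds were 1.37 for CANX and 1.16 for CALR, and in JVM2 1.05 and 1.18, the reverse order. The difference between CANX and CALR was not tested.

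PDIA4 and PDIA6 are disulfide isomerases that form and rearrange disulfide bonds of client proteins, and CRELD2 is a secreted ER stress protein with isomerase activity. PDIA4 stood at 263, 578, 258 and 603 CPM in JEKO1, at 370, 493, 384 and 562 in MAVER1, and at 262, 266, 246 and 236 in JVM2. JEKO1 and JVM2 began at the same PDIA4 level, and only the JEKO1 libraries with ironomycin stood apart from the others of the pair of lines. PDIA6 stood at 161, 284, 144 and 261 CPM in JEKO1, at 256, 345, 257 and 341 in MAVER1, and at 252, 258, 220 and 228 in JVM2. CRELD2 stood at 27.0, 50.1, 20.5 and 66.5 CPM in JEKO1, at 92.3, 147, 86.0 and 205 in MAVER1, and at 59.9, 68.5, 59.1 and 66.8 in JVM2. CRELD2 was highest with both drugs in JEKO1 and MAVER1, above ironomycin alone by 0.41 and 0.48 on the log2 scale, which was 1 library against 1 library in each line.

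Both libraries with ironomycin lay above both libraries without it for 10 of the 10 genes in JEKO1, where this held for 32.6% of all genes tested, and for 10 of 10 in MAVER1, where it held for 33.9%. In JVM2 it held for 7 of the 10 (26.0% of all genes), with PDIA4, PDIA6 and SDF2L1 overlapping. Together the 10 genes took 0.286% of all counts in the JEKO1 control and 0.555% with ironomycin, and 0.386% and 0.55% in MAVER1. In JVM2 the share was 0.434% and 0.51%. The libraries are of whole cultures, so a change of RNA per cell and a change in which cells are present cannot be told apart.

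The first test asked what each treatment changed over the 3 lines, with treatment and line as terms. With ironomycin alone all 10 genes had a fold above 0, from 0.17 for ATF6 to 0.73 ± 0.21 for HYOU1 on the log2 scale, with a median of 0.52 against 0.03 over all genes tested. None of the 10 passed at an adjusted p under 0.05 (edgeR), where 0.412% of all genes passed as higher. At an unadjusted p under 0.05 there were 9 of the 10, all but ATF6, against 22.5% of all genes in either direction. DESeq2 called 5 of the 10 higher, HSPA5, HSP90B1, CALR, CANX and HYOU1, against 5.07% of all genes. Without the JVM2 libraries edgeR called 6 higher, HSPA5, HSP90B1, PDIA6, HYOU1, CRELD2 and SDF2L1, against 4.08% of all genes, and HSPA5 changed by 0.79 (adjusted p = 0.0215) in place of 0.63 ± 0.17 (adjusted p = 0.0873).

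With both drugs 4 of the 10 genes were called higher than control, where 14.2% of all genes were called higher. HYOU1 rose by 0.93 ± 0.22 (adjusted p = 0.0112, edgeR), CRELD2 by 0.90 ± 0.23 (0.016), HSPA5 by 0.67 ± 0.17 (0.0177) and HSP90B1 by 0.60 ± 0.17 (0.0258). CANX lay just outside, at 0.46 ± 0.16 (adjusted p = 0.0509). The median of the 10 was 0.54 against 0.05 over all genes. Against ibrutinib alone, both drugs gave 5 of the 10 as higher (11.8% of all genes), the same 4 genes and CANX at 0.50 ± 0.16 (adjusted p = 0.0429), and CRELD2 had the largest fold at 1.05 ± 0.23. These 2 comparisons share the libraries with both drugs and are not independent of each other. Both counts changed when a line was left out. Without JVM2 both were 8, where 16.1% and 13.7% of all genes were called higher, and without JEKO1 or without MAVER1 both were 0. Calls over all genes fell as well, from 5268 in both drugs against control to 37 of 17875 tested without JEKO1 and 22 of 18851 without MAVER1. The folds of the 4 genes against control kept their direction, with HSPA5 at 0.54 without JEKO1 and 0.53 without MAVER1, HSP90B1 at 0.41 and 0.54, HYOU1 at 0.73 and 0.79, and CRELD2 at 0.68 and 0.76. With the JEKO1 library with both drugs left aside, a check added after the data were seen, both counts were 0.

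**Figure D2:**
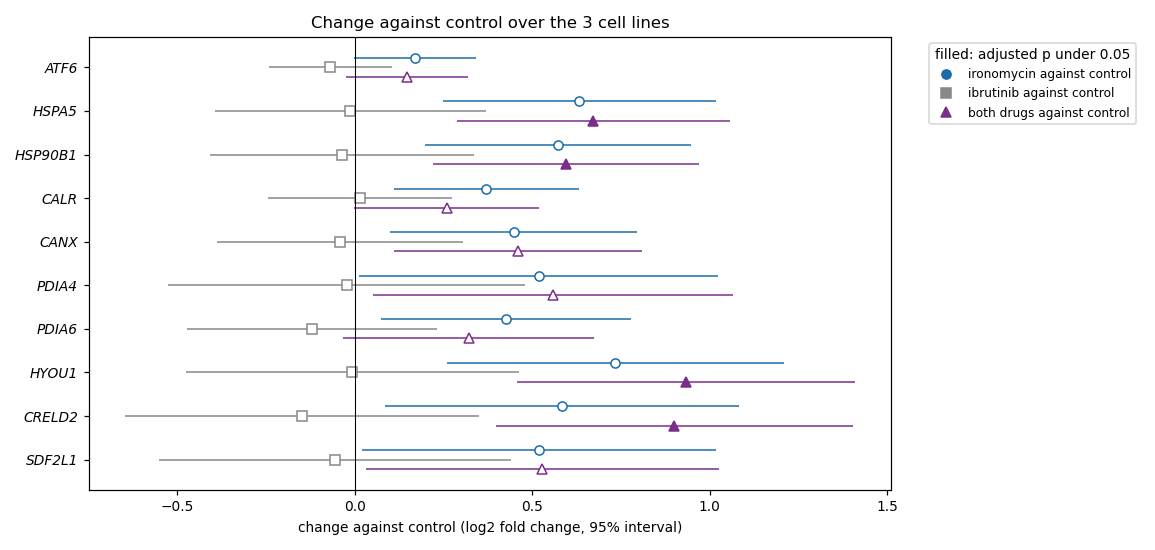
Change against control over the 3 cell lines (log2 fold change with its 95% interval, horizontal axis) for each of the 10 genes, with ironomycin, ibrutinib or both drugs. Filled markers passed an adjusted p under 0.05. The intervals of ibrutinib alone all include 0, and those of both drugs are filled for HSPA5, HSP90B1, HYOU1 and CRELD2.

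Ibrutinib alone called 0 of the 10 genes (0.0% of all genes by edgeR, 0 of the 10 by DESeq2, and 0 of the 10 at an unadjusted p under 0.05). Its changes ran from -0.15 ± 0.23 for CRELD2 to 0.02 ± 0.12 for CALR. The interval of HSPA5 ran from -0.39 to 0.37 and that of HYOU1 from -0.48 to 0.46, so changes of that size would not have been detectable. In JEKO1 alone the ibrutinib library lay below the control for 10 of the 10 genes, by 0.03 to 0.39 on the log2 scale, where 50.2% of all genes lay above it. In MAVER1 it lay above for 7 and below for 2, and in JVM2 above for 2 and below for 7, with 1 equal at 2 decimals in each.

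Adding ibrutinib to ironomycin changed the 10 genes by -0.11 to 0.32, the latter for CRELD2 (95% interval -0.18 to 0.81), and called 0 of the 10 (0.0% of all genes by edgeR, 0 of the 10 by DESeq2, and 0 of the 10 at an unadjusted p under 0.05). The departure of both drugs from the sum of the single changes was called for 0 of the 10 as well (0.0% of all genes by edgeR, 0 of the 10 by DESeq2, and 0 of the 10 unadjusted). It was largest for CRELD2 at 0.46 ± 0.32, with an interval from -0.24 to 1.17. Within MAVER1, 9 of the 10 genes were higher with both drugs than with ironomycin, by a median of 0.16 on the log2 scale. In JEKO1 and JVM2 the median was -0.04, and 4 and 3 of the 10 were higher.

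The second test gave each line its own ironomycin effect, over its pair of libraries without ibrutinib and its pair with it, with a shared ibrutinib term. Its residual spread, with 5 degrees of freedom per gene, was pooled over the lines. edgeR moderated that spread with information from all genes, which added degrees of freedom to the tests and intervals. In JEKO1 all 10 genes were called higher, where 17.3% of all genes were. The effects ran from 0.28 for ATF6 and 0.48 ± 0.12 for CALR to 1.27 ± 0.10 for HYOU1 and 1.29 ± 0.17 for CRELD2, with PDIA4 at 1.18 ± 0.10, HSP90B1 at 1.02 ± 0.09, SDF2L1 at 1.01 ± 0.14 and HSPA5 at 1.0 ± 0.11. In MAVER1 8 of the 10 were called higher, where 16.6% of all genes were, all but ATF6 (0.20 ± 0.08, adjusted p = 0.0698) and CALR (0.28 ± 0.12, adjusted p = 0.0913). HYOU1 and CRELD2 led there too, at 1.03 ± 0.10 and 0.98 ± 0.17, followed by HSPA5 at 0.77 ± 0.11, SDF2L1 at 0.73 ± 0.13 and HSP90B1 at 0.61 ± 0.09. In JVM2 edgeR called 0 of the 10, where 1.4% of all genes were called higher, with 0 of the 10 at an unadjusted p under 0.05 and 0 by DESeq2. The JVM2 effects ran from -0.05 ± 0.13 for SDF2L1 to 0.20 ± 0.11 for HSPA5. The JVM2 interval ended at 0.19 for PDIA4, at 0.23 for SDF2L1, at 0.43 for HYOU1 and at 0.55 for CRELD2, the highest end of the 10. With library totals in place of TMM the median of all genes moved to 0.17 in JEKO1 and to 0.18 for both drugs against control, and the JVM2 effects of PDIA4 and SDF2L1 turned from below to above 0, both staying within 0.05 of it.

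**Figure D3:**
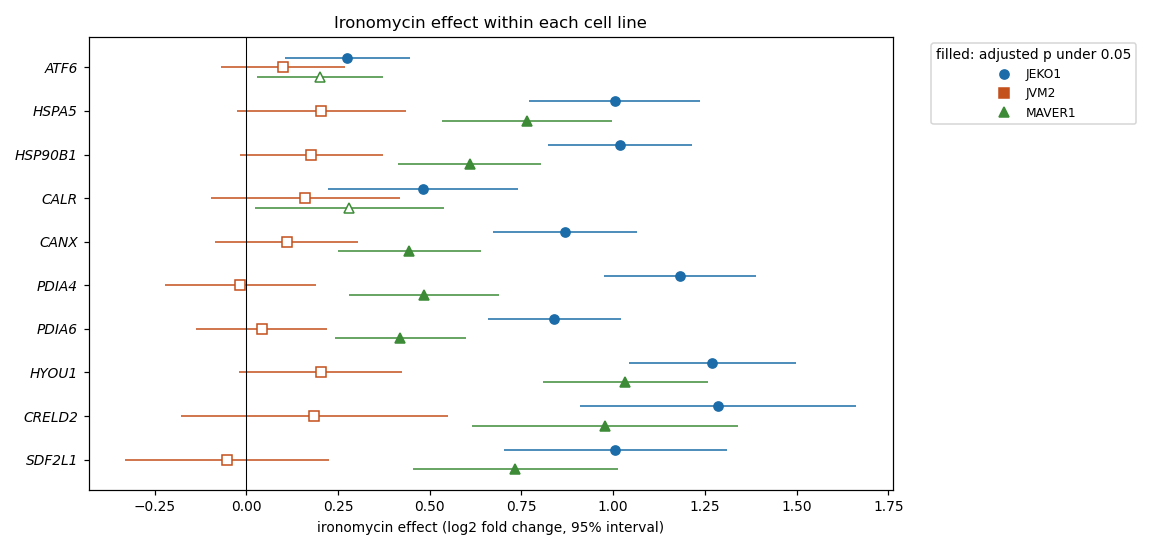
Ironomycin effect within each cell line (log2 fold change with its 95% interval, horizontal axis) for each of the 10 genes. Filled markers passed an adjusted p under 0.05, which were 10 genes in JEKO1, 8 in MAVER1 and 0 in JVM2.

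The lines differed in these effects by a test of the difference itself. Over the 3 lines 8 of the 10 genes differed, all but ATF6 (adjusted p = 0.529) and CALR (adjusted p = 0.403), where 7.97% of all genes did. The widest gap between any 2 lines was 1.20 for PDIA4 (adjusted p = 0.00158, edgeR), and it lay between JEKO1 and JVM2 for all 10 genes. Set against the mean of JEKO1 and MAVER1, a contrast chosen with earlier results known, the JVM2 effect was called lower for the same 8 genes, where 3.56% of all genes were. The differences were -0.95 ± 0.13 for HYOU1 (adjusted p = 0.00191), -0.95 ± 0.20 for CRELD2, -0.92 ± 0.16 for SDF2L1, -0.85 ± 0.12 for PDIA4, -0.68 ± 0.13 for HSPA5, -0.64 ± 0.11 for HSP90B1, -0.59 ± 0.10 for PDIA6 and -0.55 ± 0.11 for CANX. The count was 8 without JEKO1, where 1168 of all 17875 genes tested were called lower. It was 8 without MAVER1, where 223 of 18851 were. Between JEKO1 and MAVER1, with the JVM2 libraries left out, 1 of the 10 differed, where 1.87% of all genes did. It was PDIA4, by 0.70 (adjusted p = 0.0367, edgeR), and the gap for HYOU1 was 0.24 (adjusted p = 0.499).

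Other measures moved with these results, and their part in them was not tested. The 6 B-cell marker genes were counted in all 12 libraries, with none at 0, and their summed share, in counts per 1000000 of the library total, was 2051 in the JEKO1 control and 1633 with ironomycin, 1697 and 1184 in MAVER1, and 1669 and 1719 in JVM2. The 4 plasma-cell markers SDC1, PRDM1, IRF4 and JCHAIN, genes of the antibody-secreting state, were also counted in every library, with none at 0. Their summed share on that scale was 307 in the JEKO1 control, 468 with ironomycin, 209 with ibrutinib and 447 with the combination, and 575, 844, 558 and 776 in MAVER1. In JVM2 it was 1475, 1454, 1626 and 1579, above every library of the other lines. IRF4 made up most of this sum in JVM2, at 1232 to 1424 CPM. It also had the widest CPM range of the 4 markers in JEKO1, at 93.9 to 272, and in MAVER1, at 281 to 474. The sums there thus follow IRF4 more than the other markers. JCHAIN in JVM2 was at 193 CPM in the control, 86.2 with ironomycin, 170 with ibrutinib and 64.3 with the combination. In MAVER1 JCHAIN was at 219 to 317 CPM, above every JVM2 library, and in JEKO1 at 103 to 142. IRF4, SDC1 and PRDM1 were each highest in JVM2. SDC1 in JEKO1 was at 1.06 to 1.56 CPM. The T-cell markers summed to at most 2.4 and the monocyte markers to at most 4.93 on that scale in any library, and the T-cell receptor gene CD3D was at 0 in JVM2 and MAVER1. SOX11, a marker of most MCL, had 0 counts in all JVM2 libraries, and CCND1 was at 216 to 322 CPM there against 2182 to 3513 in JEKO1 and 4252 to 4828 in MAVER1. CCND2 went the other way, at 243 to 270 CPM in JVM2 against at most 0.757 in JEKO1 and 0.237 in MAVER1. The 13 genes for proteins of mitochondrial DNA took 1.75% of counts in the JEKO1 control, 1.05% with ironomycin and 0.454% with both drugs, 1.64%, 1.44% and 1.08% in MAVER1, and 1.81%, 1.69% and 1.8% in JVM2.

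The 10 genes moved together across the libraries. After each line's mean was taken out, the log2 CPM of the 45 pairs of genes correlated at 0.79 to 0.99 (Pearson's r, median 0.94) over the 12 libraries, which share treatments and lines, so that a common ironomycin effect alone gives high values. HSP90B1 had the highest median r with the others at 0.97 and CALR the lowest at 0.87. Outside the 10, and among 7767 genes whose average was 4 log2 CPM or more, the 5 with the pattern most like their mean were RPN1 (r = 0.993), SSR3 (0.992), MANF (0.988), STT3A (0.988) and DNAJB11 (0.986). RPN1 and STT3A are subunits of the oligosaccharyltransferase, SSR3 of the translocon-associated complex, and MANF and DNAJB11 are a neurotrophic factor of the ER and a J-domain cochaperone of BiP.

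The other genes of ER folding, 42 in a list of cochaperones, oxidoreductases, prolyl isomerases and glycoprotein folding factors, of which 40 were tested, showed the same order of lines. In JEKO1 26 of the 40 were called higher and 0 lower (17.3% and 16.1% of all genes), in MAVER1 22 higher and 3 lower (16.6% and 15.7%), and in JVM2 3 higher and 0 lower (1.4% of all genes higher). Their median effects were 0.63, 0.44 and 0.10, against 0.03, 0.01 and 0.00 over all genes. DNAJB9 and DNAJC3, J-domain cochaperones of BiP, rose by 1.52 ± 0.17 and 1.28 ± 0.14 in JEKO1 and by 1.68 ± 0.17 and 1.25 ± 0.13 in MAVER1, and P4HB, the founding disulfide isomerase, rose by 1.15 ± 0.12 and 0.54 ± 0.12. The 3 called in JVM2 were FKBP10 (1.46 ± 0.20), a prolyl isomerase, QSOX1 (0.44 ± 0.08), a sulfhydryl oxidase, and PDIA5 (0.55 ± 0.13). Against the mean of the other lines, 13 of the 40 were called lower in JVM2 and 0 higher, DNAJC3 by 1.07 ± 0.16 and DNAJB9 by 1.28 ± 0.21 on the log2 scale. With both drugs against control 15 of the 40 were called higher and 2 lower (14.2% and 14.0% of all genes), among them ERO1B, the oxidase that recharges disulfide isomerases, at 1.72 ± 0.35.

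Genes of ER quality control, which extract misfolded proteins for degradation and are known targets of ATF6 and XBP1, rose in JEKO1 and MAVER1. Of 12 tested, 12 were called higher in JEKO1 (17.3% of all genes), 11 in MAVER1 (16.6%) and 1 in JVM2 (1.4%), and 7 with both drugs against control (14.2%), with none lower in any of these. DERL3, a channel subunit, rose by 2.07 ± 0.14 in JEKO1, 1.85 ± 0.14 in MAVER1 and 0.63 ± 0.14 in JVM2 (adjusted p = 0.0441). SEL1L, the adaptor of the ubiquitin ligase, rose by 1.72 ± 0.13 in JEKO1 and 1.66 ± 0.13 in MAVER1, and in JVM2 its effect was lower than their mean by 1.29 ± 0.16. HERPUD1, which organises the complex, rose by 0.86 ± 0.18 and 1.23 ± 0.18 in JEKO1 and MAVER1.

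The genes around ATF6 itself, 18 in the list of its proteases, partners, relatives and transport factors, were mixed. In JEKO1 12 were called higher and 1 lower (17.3% and 16.1% of all genes), in MAVER1 9 and 1 (16.6% and 15.7%), and in JVM2 4 and 0 (1.4% and 0.868%). XBP1, the transcription factor of the IRE1 arm whose gene ATF6 also switches on, stood at 36.8 CPM in the JEKO1 control, 102 with ironomycin, 41.8 with ibrutinib and 125 with the combination. In MAVER1 it stood at 441, 501, 467 and 540 CPM, and in JVM2 at 289, 256, 275 and 239. The JEKO1 level with ironomycin stayed below every library of the other lines, although its effect, 1.53 ± 0.10 (adjusted p = 9.66e-06, edgeR), was the largest of the 3. SEC24D, a coat protein of transport from the ER, rose by 2.03 ± 0.17 in JEKO1 and 2.17 ± 0.17 in MAVER1. The 4 genes called in JVM2 were KDELR3 at 2.55 ± 0.28 and KDELR2 at 0.68 ± 0.10, receptors that return chaperones to the ER, CREB3 at 0.74 ± 0.09, a membrane-bound relative of ATF6, and SEC16A at 0.41 ± 0.08. KDELR2 (0.70 ± 0.09, adjusted p = 0.0115) and KDELR3 (2.06 ± 0.34, adjusted p = 0.0347) were the 2 of this list called with ironomycin alone over the 3 lines. CREB3 was the 1 gene of the list whose effect was called higher in JVM2 than the mean of the others, by 0.40 ± 0.11 (adjusted p = 0.0499).

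**Figure D4:**
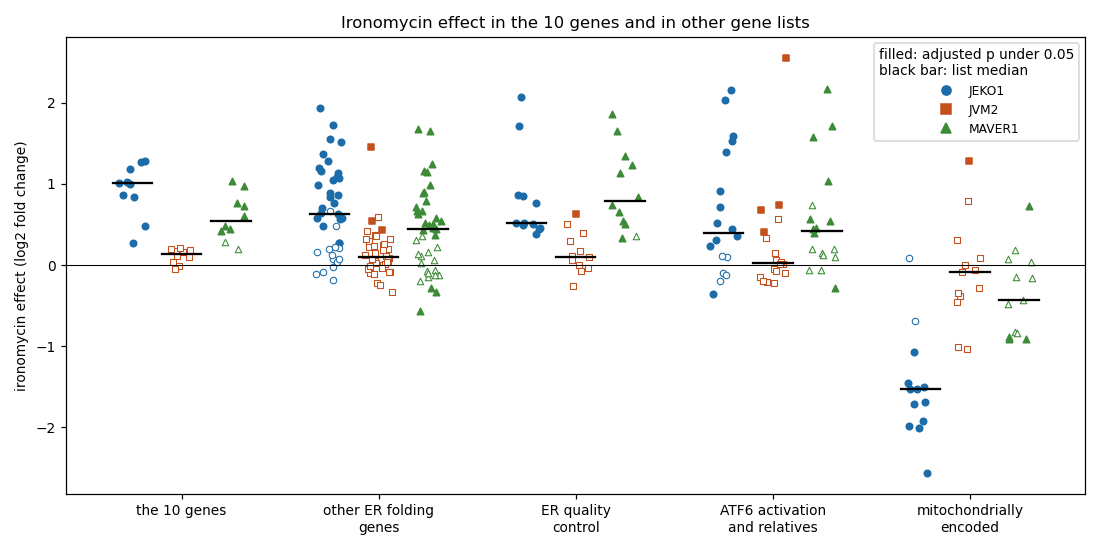
Ironomycin effect (log2 fold change, vertical axis) in each cell line for the 10 genes and for other gene lists (horizontal axis), with 1 point per gene, filled where the adjusted p was under 0.05, and a black bar at the median of a list. The last list is the 13 genes of mitochondrial DNA. The medians of the 40 other ER folding genes were 0.63 in JEKO1, 0.10 in JVM2 and 0.44 in MAVER1.

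Of 13 tested relatives of the 10 genes, 5 were called higher and 6 lower in JEKO1 (17.3% and 16.1% of all genes), 3 and 6 in MAVER1 (16.6% and 15.7%) and none in JVM2. The cytosolic Hsp90 HSP90AB1, a relative of HSP90B1, fell by 0.66 ± 0.13 in JEKO1 and 0.65 ± 0.13 in MAVER1 on the log2 scale, and the cytosolic Hsp70 HSPA8, a relative of HSPA5, fell by 1.06 ± 0.20 and 0.79 ± 0.20. HSPH1 and HSPA4, cytosolic relatives of HYOU1, fell by 0.83 ± 0.15 and 0.58 ± 0.10 in JEKO1 and by 0.72 ± 0.15 and 0.47 ± 0.10 in MAVER1. Each of these falls was larger than the shift of the median that library totals gave. The mitochondrial relatives were TRAP1, which fell by 0.47 ± 0.10 and 0.70 ± 0.10, and HSPA9, at 0.09 ± 0.08 and -0.20 ± 0.08, which was not called in either line. Among relatives of the ER, PDIA3 rose by 0.62 ± 0.10 and 0.58 ± 0.10, and ATF6B, the second ATF6 gene, by 0.36 ± 0.08 and 0.44 ± 0.08. SDF2, the constitutive relative of SDF2L1, was at -0.04 ± 0.08 in JEKO1 and -0.15 ± 0.08 in MAVER1 and was not called. CRELD1 rose in JEKO1 (0.64 ± 0.12) and was at 0.32 ± 0.13 in MAVER1 (adjusted p = 0.0767, edgeR). CLGN rose in JEKO1 (1.78 ± 0.22) and was at -0.21 ± 0.56 in MAVER1, where it had 11 to 19 counts. In JVM2 it had 0 counts in 3 libraries and 9 with both drugs, so no fold is given. CALR3 did not pass the filter. In JVM2 CRELD1 was at 0.48 ± 0.12 (adjusted p = 0.0585, edgeR) and HSPA8 at -0.41 ± 0.20.

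The promoter element can be set beside the effects. Exact ERSE or ERSE-II sequences were held by 44 genes of the promoter table, 8 of them among the 10 described here, and 23 of the other 36 were tested. Of those 23, edgeR called 10 higher and 5 lower in JEKO1 (17.3% and 16.1% of all genes), 5 higher and 4 lower in MAVER1 (16.6% and 15.7%) and 0 in JVM2 (1.4% and 0.868%). The MAVER1 counts are near the share of all genes. Their median effects in these lines were 0.17, 0.00 and -0.07. With both drugs against control 4 were called higher and 5 lower (14.2% and 14.0%). The count called higher is near the share of all genes, and the median of the 23 was 0.06 against 0.05 over all genes. The 4 higher were ERO1B, FICD (1.33), which modifies BiP, HERPUD1 (0.76) and SERP1 (0.51), a stabiliser of ER membrane proteins. The 5 lower were CAMTA1 (-0.39), GYS1 (-0.41), RUVBL2 (-0.6), SETD3 (-0.33) and ZNF143 (-0.4). These genes are named here after their values were seen. Those called lower in both JEKO1 and MAVER1, also named after their values were seen, were GYS1, RUVBL2, SETD3 and ZNF143, and their JEKO1 effects ran from -0.53 to -0.31. XBP1 holds an exact ERSE as well and was called in JEKO1 only (MAVER1 0.20 ± 0.10, adjusted p = 0.155, and JVM2 -0.19 ± 0.10, adjusted p = 0.327, edgeR). PDIA4, without either element in these letters, had a JEKO1 effect of 1.18, between those of the 8 genes that hold one, which ran from 0.48 to 1.29.

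**Figure D5:**
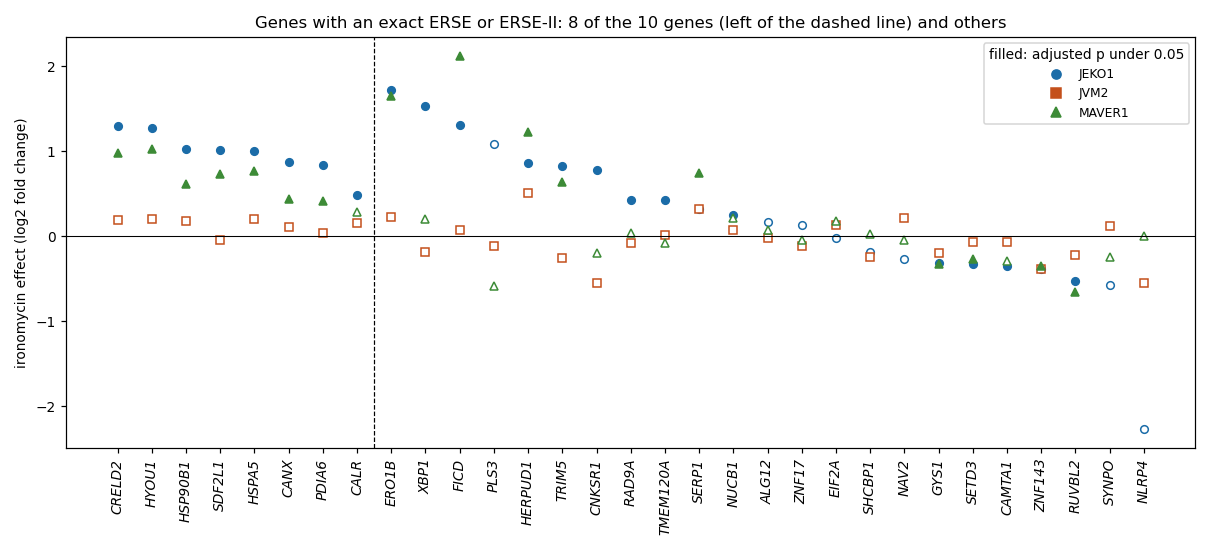
Ironomycin effect (log2 fold change, vertical axis) in each cell line for the 31 tested genes whose promoter holds an exact ERSE or ERSE-II (horizontal axis), with 8 of the 10 genes left of the dashed line and 23 others right of it, in the order of their JEKO1 effect. Filled markers passed an adjusted p under 0.05, and no JVM2 marker is filled.

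The pseudogenes HSPA5P1, HSP90B2P and HSP90B3P had at most 11 counts in a library. On the opposite strand, ALG12 overlaps CRELD2 and had 194 to 900 counts where CRELD2 had 816 to 7778, ATP6V1C2 overlaps PDIA6 with 22 to 281, and C12orf73 overlaps HSP90B1 with 253 to 455. The library kit keeps strand, but whether the counting used it is not given in the sources used here, so reads in these overlaps cannot be assigned with certainty.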

How the data were processed

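The deposited files hold raw counts per Ensembl gene, without normalization, that the authors made from 12 strand-specific, paired-end poly(A) libraries. The submitters' processing notes name STAR, DESeq2 and GRCh37, and the counter and annotation are not given in the sources used here. The number of columns left unused is 0. Symbols came from GENCODE v29 and RefSeq tables (52181 of 63677 genes), exon lengths from GENCODE v29, and promoters from RefSeq, GRCh38.p14. No GRCh37 genome was used here, so counted genes carry no coordinates.

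The test was edgeR's quasi-likelihood F-test (edgeR 4.0.16, R 4.3.3) with TMM factors, the filterByExpr filter at a minimum count of 10 and Benjamini-Hochberg adjustment over 18674 genes. A gene was called at an adjusted p under 0.05 with no minimum fold. The first model held treatment and cell line, and the second held line, ironomycin within each line and a shared ibrutinib term. Standard errors, given after ± in the text, are the fold change divided by the square root of F, and intervals are 95%. Log2 ratios of single libraries used a prior count of 2. The difference between lines has 2 coefficients, for which the alternative, DESeq2 1.42.0, used a likelihood ratio test.

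Line entered as the replicate block, since same-numbered libraries are of 1 cell line. As a check, deviations from the treatment means had correlations of 0.926 to 0.976 within a line (18 pairs of libraries) and of -0.684 to -0.127 across lines (36 pairs).

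The 10 genes and all gene lists were chosen with earlier results of these data known, so lists are described by counts and medians beside all genes and not tested. Named genes are the 10, their relatives, at most 8 called genes of each list by adjusted p, and the 5 genes most like the mean of the 10. The steps were also run on simulated counts, with outcomes not reported here. For the test of treatments the simulated effect was the same in every line, unlike the ironomycin effects here. Alternatives were other scalings, no filter, robust dispersions, DESeq2, a minimum fold, leaving out a line, no block, fewer libraries and, added after the data were seen, leaving aside the JEKO1 library with both drugs. Python 3.11.15, pandas 2.3.3 and matplotlib 3.10.9 were used for tables and plots.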

Additional observations from a re-analysis of the deposited data

Results flagged for a closer look

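The ironomycin effect differed between cell lines by a test of the difference itself, JVM2 against the mean of JEKO1 and MAVER1, for 8 of the 10 genes. This contrast was chosen with earlier results of these data known, and it called 3.56% of all genes lower. On the log2 scale JVM2 was lower by -0.68 for HSPA5, -0.64 for HSP90B1, -0.55 for CANX, -0.85 for PDIA4, -0.59 for PDIA6, -0.95 for HYOU1, -0.95 for CRELD2 and -0.92 for SDF2L1. Without JEKO1, which leaves JVM2 and MAVER1 at the same 250 nM of ironomycin, 8 of the 10 differed as well. Of all 17875 genes tested there, 2366 differed. Cell line, serum and ibrutinib dose cannot be told apart in that comparison.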

How the results depend on the processing

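Of 1110 repeats of a value of 1 gene under another setting, 981 kept the direction and the side of the threshold, 36 passed it newly, 57 lost it and 36 turned sign. The counts of the 10 genes called depended on the setting as follows, and the cause was not tested. Ironomycin against control gave 2 genes without a filter on low counts and 5 with DESeq2, against 0 as reported, and 0 to 6 when a line was left out. Both drugs against control gave 7 with library totals in place of TMM against 4, 0 with a minimum log2 fold of 1, 0 with only the libraries of the 2 treatments and 0 with the JEKO1 library with both drugs left aside, and 0 to 8 when a line was left out. Both drugs against ibrutinib gave 9 with DESeq2 against 5, 1 with the minimum fold, 0 with only the libraries compared and 0 with that library left aside, and 0 to 8 when a line was left out. Without the line as replicate block both of these counts were 0, as were those of the other comparisons of treatments. The minimum fold left 4 of 8 genes that differed between lines, 0 of 8 lower in JVM2 than in the others, 6 of 10 in JEKO1 and 1 of 8 in MAVER1. The difference between lines gave 1 to 8 when a line was left out, with 1 without JVM2. Over all genes, ironomycin against control called 109 as reported, 211 with library totals, 497 without a filter, 2362 with DESeq2, 1636 without JVM2, 3 without JEKO1 and 1 without MAVER1. Library totals changed the split of both drugs against control from 2655 higher and 2613 lower to 3934 and 1563, and that of JEKO1 from 3224 and 2999 to 4671 and 1753.

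Every change of sign was in a comparison with no call for that gene. For ibrutinib against control, library totals gave 0.0108 for HSPA5, 0.0011 for PDIA4 and 0.0171 for HYOU1, and no block 0.0098 for HYOU1. Leaving out a line gave -0.0382 to 0.0167 for HSPA5, -0.0376 to 0.0529 for CALR, -0.1023 to 0.0025 for CANX, -0.0623 to 0.0176 for PDIA4, -0.0383 to 0.0368 for HYOU1 and -0.0987 to 0.0062 for SDF2L1. For both drugs against ironomycin it gave -0.0956 to 0.1049 for HSPA5, -0.038 to 0.0632 for HSP90B1, -0.2251 to 0.0417 for CALR, -0.0109 to 0.0403 for CANX, -0.0338 to 0.106 for PDIA4 and -0.1837 to 0.2033 for SDF2L1. There, library totals gave 0.0343 for ATF6, RLE size factors -0.002 and DESeq2 -0.0068 for SDF2L1, and leaving aside the JEKO1 library with both drugs -0.0505 for HSPA5, -0.1213 for HSP90B1, -0.1106 for CANX, -0.2048 for PDIA4 and -0.0114 for SDF2L1. For the departure from the sum of the single changes, leaving out a line gave -0.0574 to 0.1237 for HSPA5, -0.011 to 0.0299 for PDIA6 and -0.0976 to 0.1971 for SDF2L1, and leaving aside that library gave -0.0334 for HSPA5, -0.0807 for HSP90B1, -0.0642 for CANX, -0.1783 for PDIA4 and -0.1211 for PDIA6. For the JVM2 effect, library totals gave 0.0455 for PDIA4 and 0.0101 for SDF2L1.

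The lowest count of the 10 genes in any library was 386.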
